A study of Lentinus tigrinus with 27 samples.

Results

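The mature stipe of Lentinus tigrinus was compared with the stage 1 primordium, the undivided white stalk from which the fruiting body grows. The comparison takes 6 of the 27 RNA libraries of a series on the development of this mushroom, the 3 libraries titled as fruiting body stipe (FB_stipe, replicates 2, 3 and 4) and the 3 titled as stage 1 primordium (P1, replicates 1, 2 and 3). All come from strain RLP-9953-sp, with no allele or agent named in the labels, and measure polyA RNA. Cultures on aspen sawdust with wheat bran spent 21 days at 30 °C in darkness and then fruited at 25 °C under a daily cycle of 12 h light and 12 h darkness. P1 was defined by a height of 5 to 20 mm and the lack of a cap initial, and FB by a height of 50 to 70 mm and a fully flattened cap. The libraries of the stages in between are the stipes of stage 2 primordia (P2_stipe, 15 to 25 mm) and of young fruiting bodies (YFB_stipe, 30 to 40 mm), with 3 libraries each. The labels call the replicates biological and do not say whether they come from separate cultures, so a p-value measures the spread between libraries. In the main tests of single genes that spread was estimated from all 27 libraries in their 9 groups, not from the 6 alone. P1 is a whole young stalk and FB_stipe a dissected part of a larger organ, so a change in the mix of cells and a change of RNA within cells cannot be told apart.

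A mushroom stipe lifts the spore-bearing cap above the substrate. In agarics studied in more detail, such as Coprinopsis cinerea, it begins as compact tissue of dividing hyphae and lengthens late and fast, mainly by expansion of cells that are already present, while the chitin and glucan wall is loosened and rebuilt. Lentinus tigrinus is a wood-decay fungus whose stipe is central and whose cap first appears as a brown tip on the primordium. The files do not pair the gene identifiers with names or functions, so no pathway, wall enzyme or cell type marker could be looked up and the tissue labels could not be checked against markers. Genes appear under their identifiers, with the bars of the files written as _. Following a rule based on fold and level, 2 genes that rose and 2 that fell are named, and all others are described as groups.

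The 6 libraries held 13.98 to 25.37 M reads assigned to genes. Of 15581 gene models 13569 had enough reads to be tested. The libraries within a group correlated at 0.949 to 0.980 (Pearson's r of log2(CPM + 1) over 12810 genes, CPM being read counts per M reads, TMM-scaled), and the median SD per gene was 0.25 in P1 and 0.26 in FB_stipe on that scale. FB_stipe replicate 2 lay at 20.5 on the first principal component, against 49.6 and 49.7 for the other FB_stipe libraries and -20.6 to -2.54 for P1. No flowcell held both groups, since the P1 libraries were spread over 3 flowcells, FB_stipe replicates 2 and 3 shared another one, and FB_stipe replicate 4 was alone on its own. Group and flowcell therefore cannot be told apart within the 6 libraries, and values within flowcells are given below through the stages in between.

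The stalk changed broadly on the way to maturity, and more genes fell than rose. In FB_stipe 723 genes were higher and 1296 lower than in P1, which is 2019 of 13569 genes tested or 14.9% (5.33% higher and 9.55% lower). Calls rest on edgeR's quasi-likelihood test with Benjamini-Hochberg adjustment over all genes tested, and need an adjusted p under 0.05 together with a change of at least 2-fold. Without adjustment 4815 genes had a p under 0.05. Most changes were moderate, with 583 rises and 970 falls below 4-fold. Past 4-fold were 466 genes (3.43%), of which 140 rose (1.03%) and 326 fell (2.4%). Past 8-fold were 119 genes (0.877%), of which 32 rose (0.236%) and 87 fell (0.641%). Past 16-fold were 36 genes (0.265%), of which 12 rose (0.0884%) and 24 fell (0.177%). The median log2 fold change was 1.40 for genes that rose (quartiles 1.15 and 1.81), -1.53 for genes that fell (quartiles -2.0 and -1.24) and -0.07 over all genes tested. The 3 libraries of one group lay wholly above those of the other for 699 of the genes that rose and 1269 of those that fell, and for 43.1% of all genes tested (19.3% with FB_stipe above and 23.8% with it below). The calls come from the same libraries, so nothing is read from these shares.

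The count depended on how flowcell was treated. When flowcell entered the model of all 27 libraries, 776 genes were called, 290 higher and 486 lower, and FB_stipe replicate 4 drops out of that fit. All 2019 genes kept their sign in it, but they were chosen on libraries that this fit uses again, so nothing is read from that. Without FB_stipe replicate 3 the count was 1329. Without any scaling beyond the library total the split was 429 higher against 1821 lower, and the median log2 fold change of all genes moved from -0.07 to -0.27.

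**Figure D1:**
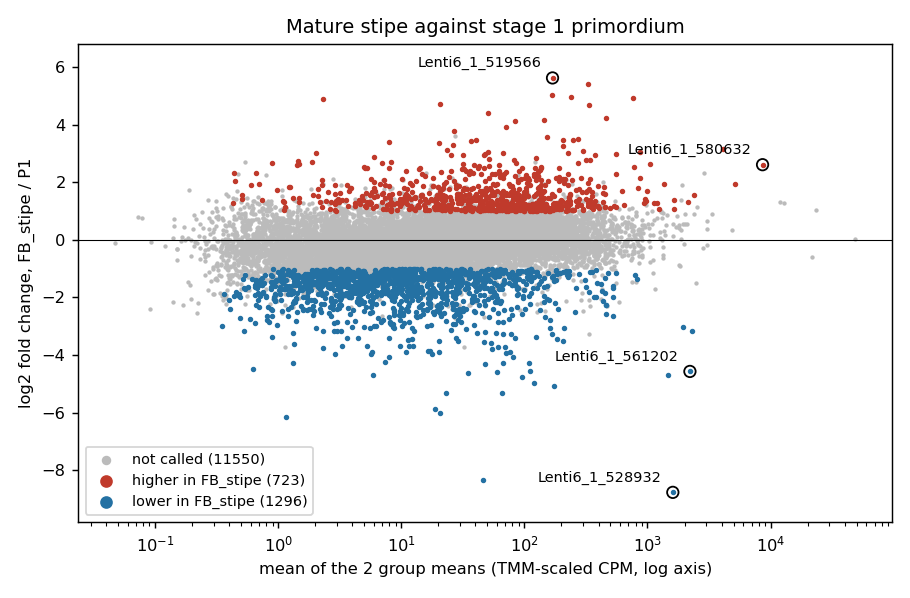
Each point is 1 of 13569 genes, with the mean of the P1 and FB_stipe group means (TMM-scaled CPM, log axis) across and the log2 fold change of FB_stipe over P1 upward. Red points are the 723 genes called higher and blue points the 1296 called lower in FB_stipe, grey points were not called, and the circled genes are the 4 described by name. The blue points extend to -8.77 and the red points to 5.62.

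The largest rise was that of Lenti6_1_519566, a gene model of 1468 bases. It stood at 6.41, 6.59 and 7.21 CPM in P1 replicates 1, 2 and 3 and at 295, 473 and 228 CPM in FB_stipe replicates 2, 3 and 4. The groups are far apart, and P1 is more even than FB_stipe. The log2 fold change was 5.62 ± 0.90 (SE, edgeR adjusted p = 0.000361, n = 3 per group). Ranked per length by mean TPM among 15581 models, it moved from place 10077 in P1 to place 641 in FB_stipe. The stages between were uneven, with 7.83, 100 and 25.7 CPM in P2_stipe and 9.60, 28.7 and 174 CPM in YFB_stipe replicates 1, 2 and 3. All 6 libraries lay above P1 and below FB_stipe, the lowest of them close to P1. The highest YFB_stipe library shares its flowcell with FB_stipe replicates 2 and 3. In the model that includes flowcell the log2 fold change was 4.51 (edgeR adjusted p = 0.0286).

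Lenti6_1_580632, a model of 622 bases, gained the most reads. It held 2306, 2712 and 2254 CPM in P1 replicates 1, 2 and 3 and 13112, 15105 and 16144 CPM in FB_stipe replicates 2, 3 and 4. The groups do not overlap and both are tight. The log2 fold change was 2.61 ± 0.70 (SE, edgeR adjusted p = 0.0112), and its place by mean TPM moved from 11 to 5. In FB_stipe it alone took 1.11% to 1.48% of the reads of a library. The 2 stalk libraries of the earlier stages on the flowcell of FB_stipe replicates 2 and 3 were also high, with 17584 CPM in P2_stipe replicate 3 and 12593 CPM in YFB_stipe replicate 3, against 3966 to 6754 CPM in the other 4 libraries of these stages. FB_stipe replicate 4, on a flowcell of its own, was the highest of the FB_stipe libraries. In the model that includes flowcell the log2 fold change was 1.37 and the call was lost (edgeR adjusted p = 0.287, 0.000533 to 0.287 over all alternatives, DESeq2 giving the lowest). It was lost as well with the replicate number as a block (2.42, edgeR adjusted p = 0.0503).

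The deepest fall was that of Lenti6_1_528932, a model of 660 bases that was among the most abundant in the primordium. It held 1786, 467 and 7361 CPM in P1 replicates 1, 2 and 3 and 3.06, 1.75 and 17.2 CPM in FB_stipe replicates 2, 3 and 4. Every P1 library stood far above every FB_stipe library, although the P1 libraries themselves differed widely. The log2 fold change was -8.77 ± 1.73 (SE, edgeR adjusted p = 0.00165), and its place by mean TPM moved from 7 to 7307. The size of the fall moved with single libraries, to -7.26 when P1 replicate 3 was left out and to -10.38 when FB_stipe replicate 4 was. Modelling flowcell gave -11.86. In between it was low in P2_stipe (275, 86 and 43.7 CPM) and higher again in YFB_stipe (538, 414 and 1798 CPM, replicates 1, 2 and 3), so all YFB_stipe libraries lay above all P2_stipe libraries.

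Lenti6_1_561202, a short model of 339 bases, lost the most reads among the other genes that fell. It held 5172, 3524 and 4037 CPM in P1 replicates 1, 2 and 3 and 84.9, 299 and 153 CPM in FB_stipe replicates 2, 3 and 4. Its log2 fold change was -4.57 ± 0.62 (SE, edgeR adjusted p = 0.000107). It was -5.16 when FB_stipe replicate 3 was left out, -4.23 when FB_stipe replicate 2 was, and -5.24 when flowcell was modelled. Its place by mean TPM moved from 4 to 212. It was still high one stage before maturity, with 2202, 2797 and 6954 CPM in YFB_stipe replicates 1, 2 and 3. The highest values of P2_stipe (5609 CPM) and YFB_stipe were in the libraries on the flowcell of FB_stipe replicates 2 and 3. No FB_stipe library reached the level of any earlier stalk library.

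**Figure D2:**
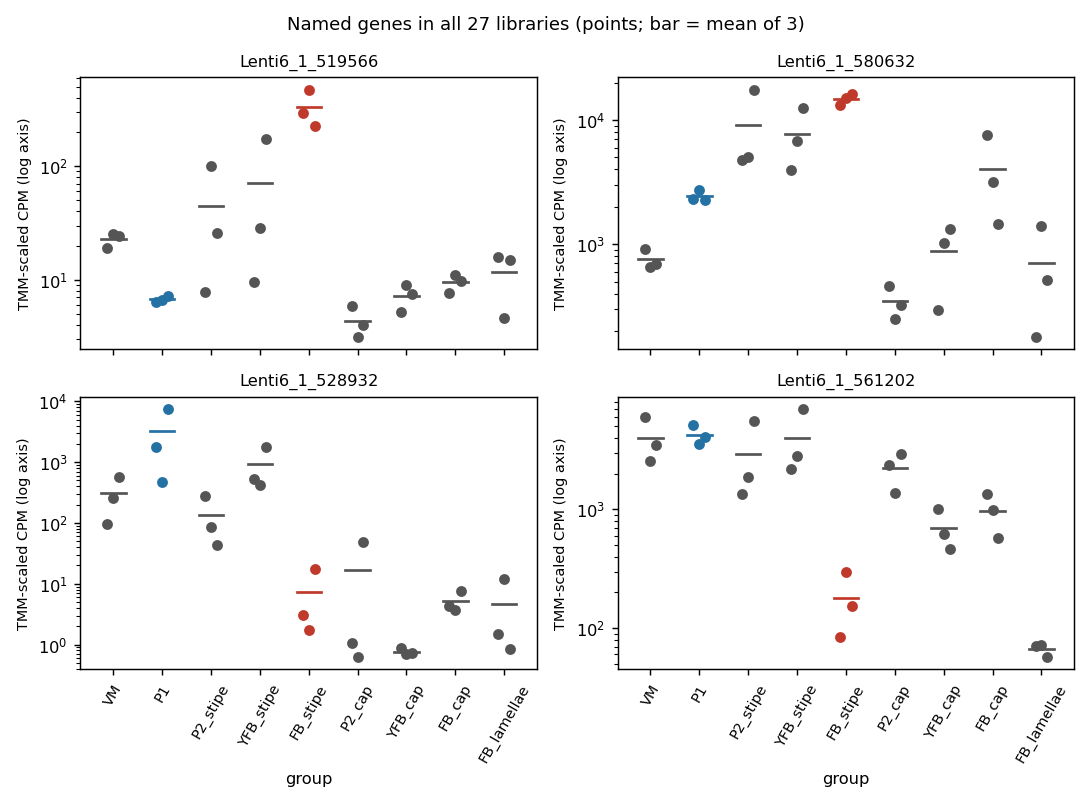
Each panel shows 1 gene in all 27 libraries as TMM-scaled CPM on a log axis, with a point per library and a bar at the mean of 3, P1 in blue and FB_stipe in red. FB_stipe lies above P1 in the upper panels (for Lenti6_1_519566, 228 to 473 against 6.41 to 7.21 CPM) and below it in the lower panels (for Lenti6_1_561202, 84.9 to 299 against 3524 to 5172 CPM).

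Genes that rose started from levels near those of all genes. The median P1 level of the 723 genes that rose was 27.0 CPM, against 20.1 CPM over all genes tested, and their median FB_stipe level was 80.6 CPM. Of them 30 were below 1 CPM in P1, as were 795 of all 13569 genes tested. No tested gene, called or not, went from below 1 CPM in P1 to 10 CPM or more in FB_stipe. Genes at 100 CPM or more in this group went from 106 in P1 to 310 in FB_stipe. The 1296 genes that fell had a median of 14.1 CPM in P1 and 4.27 CPM in FB_stipe. In FB_stipe 222 of them were below 1 CPM, against 21 in P1, while over all genes tested the number went from 795 to 1148, and 8 went from 10 CPM or more to below 1 CPM. None of the called genes was without a read in all 3 libraries of a group.

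The genes that rose took 4.23%, 5.17% and 5.02% of the reads in P1 replicates 1, 2 and 3, and 12.7%, 14.1% and 14.5% in FB_stipe replicates 2, 3 and 4. The genes that fell took 7.85%, 7.90% and 8.64% in P1 and 1.95%, 1.84% and 1.73% in FB_stipe. These shares describe genes chosen on the same libraries and are no test.

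The most abundant transcripts were partly exchanged. Of the 100 genes with the highest mean TPM, 60 were the same in P1 and FB_stipe. Of the FB_stipe 100, 26 were called higher and 0 lower than in P1. Of the P1 100, 6 were called lower and 5 higher in FB_stipe. Each list was chosen by the group in which its genes are high, which favours rises in the first and falls in the second, so the counts are descriptions. Over all genes tested 5.33% were called higher and 9.55% lower.

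Fewer genes were detected in each FB_stipe library than in any P1 library, and the most abundant genes took a larger share. At 1 CPM or more, here without TMM scaling, 12635, 12866 and 12637 genes were detected in P1 replicates 1, 2 and 3 and 12225, 11968 and 12275 in FB_stipe replicates 2, 3 and 4. The means differed by more than either group's SD (12156 ± 165 against 12713 ± 133, SD, n = 3 each, exact permutation test, two-sided, p = 0.10, the smallest that 3 against 3 allows). With every library thinned to the depth of the shallowest of the 27, and counting genes with 10 reads or more, the means were 12351 ± 142 in FB_stipe and 12821 ± 97.1 in P1 (exact permutation p = 0.10). The 100 most abundant genes took 27.2%, 24.2% and 24.0% of the reads in P1 and 29.3%, 27.7% and 29.9% in FB_stipe (28.9% ± 1.12 against 25.1% ± 1.77, SD, n = 3 each, exact permutation p = 0.10). The single most abundant gene of a library took 4.33% ± 0.53 of the reads in FB_stipe and 4.85% ± 0.50 in P1, a difference within the spread (exact permutation p = 0.40). Of the stages between, P2_stipe had 12439 ± 131 detected genes (12528, 12288 and 12500), below every P1 library and above every FB_stipe library, and YFB_stipe had 12708 ± 82.9, near the P1 mean. The 100 most abundant genes took 28.0% ± 4.53 in P2_stipe and 30.2% ± 2.39 in YFB_stipe.

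The direction of change went with abundance. In the lowest quartile of genes by mean abundance over all 27 libraries 2.18% rose and 13.9% fell, against 5.33% and 9.55% over all genes tested. In the second quartile the shares were 4.72% and 12.8%, and in the third 6.99% and 7.55%. In the highest quartile 7.43% rose and 3.98% fell, an order that held with the size factors of DESeq2 (7.96% and 3.80%) and was turned around without scaling (3.98% and 6.13%). Under each of these scalings the share that fell was smaller in the highest quartile than in the lowest.

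The share of genes that rose was highest among short models. Of 571 tested genes under 450 bases 9.81% rose, of 5435 genes from 450 to under 1200 bases 5.89%, of 5837 genes from 1200 to under 2400 bases 5.26%, and of 1726 genes of 2400 bases and over 2.32%. The share that fell was 9.28%, 10.2%, 9.82% and 6.84% in the same classes. In the shortest class rises exceeded falls slightly, and without scaling the order turned, with 7.36% up and 12.3% down, while the longest still had the lowest share of rises (0.811%). Short models had the lower median abundance (5.22 CPM under 450 bases against 90.6 CPM at 2400 bases and over). Within the highest quartile by abundance, 109 of 837 genes under 1200 bases rose, and 143 of 2555 longer ones. These classes are described without a test.

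**Figure D3:**
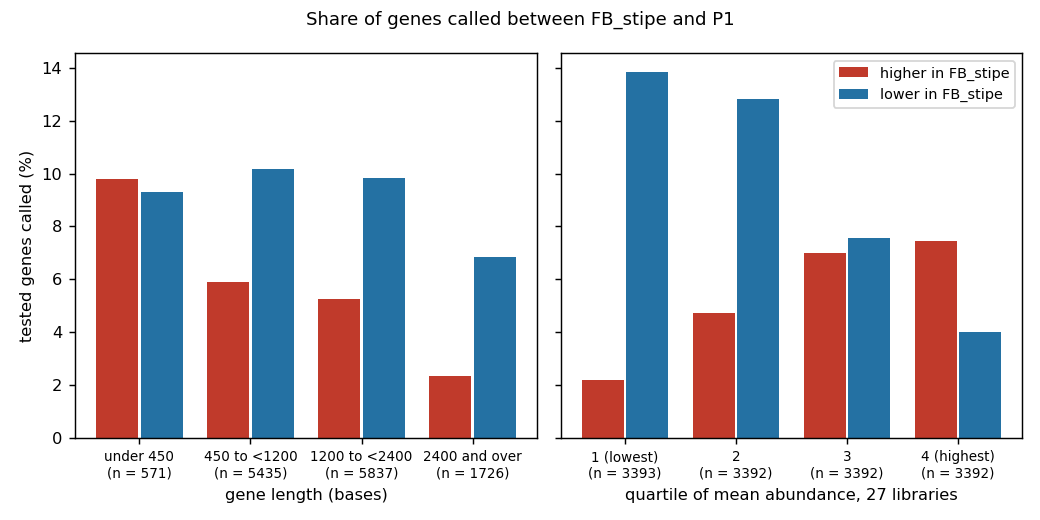
Bars give the percent of tested genes called higher (red) or lower (blue) in FB_stipe than in P1, by gene length in bases at left and by quartile of mean abundance over 27 libraries at right, with the number of genes under each pair. The red bars fall from 9.81% to 2.32% with length and the blue bars from 13.9% to 3.98% with abundance. In the highest quartile red exceeds blue with TMM scaling, and the reverse holds without scaling.

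The stages in between did not lie on a straight path. P2_stipe had covered a median of 42.8% of the log2 change of the genes that rose and 45.5% of that of the genes that fell, whereas YFB_stipe, the later stage, stood at 19.6% and 19.8% (share of the difference between P1 and FB_stipe means of log2(CPM + 1)). In the 3 P2_stipe libraries the median gene that rose lay 0.54, 0.61 and 0.50 above the P1 mean, in the YFB_stipe libraries 0.11, 0.22 and 0.50, and in FB_stipe 1.22, 1.38 and 1.38 (log2(CPM + 1), replicates in order). For the genes that fell the values were -0.52, -0.65 and -0.52 in P2_stipe, -0.16, -0.28 and -0.34 in YFB_stipe, and -1.15, -1.34 and -1.20 in FB_stipe. The genes that fell thus stood nearer to P1 in every YFB_stipe library than in any P2_stipe library, and the genes that rose in YFB_stipe replicates 1 and 2 only. The step between the middle stages uses neither P1 nor FB_stipe libraries. Between P2_stipe and YFB_stipe, 573 of the 723 genes that rose were lower in YFB_stipe (79.3%, against 48.5% of all genes tested), and 1050 of the 1296 genes that fell were higher (81.0%, against 51.5% of all genes). Across all genes tested the 2 changes had a correlation of -0.38, a description over genes measured in the same libraries.

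For single genes this turn was not called. Between P2_stipe and YFB_stipe edgeR and limma-voom called 0 genes, and 844 of 13569 genes tested had an unadjusted p under 0.05 in edgeR. Some genes pass this threshold also when no gene changes. The median change was -0.31 for genes that rose and 0.38 for genes that fell (log2). Nor did the test of the late against the early change, which asks whether the step from the mean of the middle stages to FB_stipe exceeded the step from P1 to that mean, call any gene. EdgeR and limma-voom called 0 genes, DESeq2 called 4, and 637 genes had an unadjusted p under 0.05 in edgeR, or 4.69% of those tested. That share is near what this threshold gives when no gene changes. The median of that contrast was 0.51 for genes that rose and -0.63 for genes that fell (log2). A call needs an estimated change of at least 2-fold, so median changes of this size lie below what the rule admits. The adjusted p was a limit as well, also for genes past 2-fold. Lenti6_1_561202 had a late against early contrast of -3.95 ± 0.79 (log2, SE, edgeR adjusted p = 0.247). The step of Lenti6_1_528932 from P2_stipe to YFB_stipe was 2.76 (log2, edgeR adjusted p = 0.785).

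Within flowcells each step could be followed on at least 1 flowcell, with 1 or 2 libraries a side and no test. From P1 to P2_stipe, 91.3% and 85.6% of the genes that rose were higher and 90.4% and 84.9% of the genes that fell were lower on the 2 flowcells with both stages. From P2_stipe to YFB_stipe, 83.4% of the genes that rose were lower on one flowcell, and 46.9% on the other, the flowcell of FB_stipe replicates 2 and 3. Of the genes that fell, 81.9% and 67.9% were higher on the same flowcells. The turn of the genes that rose was therefore seen on 1 of 2 flowcells, and that of the genes that fell on both. From YFB_stipe to FB_stipe, on that last flowcell, 93.8% of the genes that rose were higher and 98.1% of the genes that fell were lower, with median changes of 0.83 and -0.95. The genes were chosen on P1 and FB_stipe libraries, so the first and last of these steps are descriptions.

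**Figure D4:**
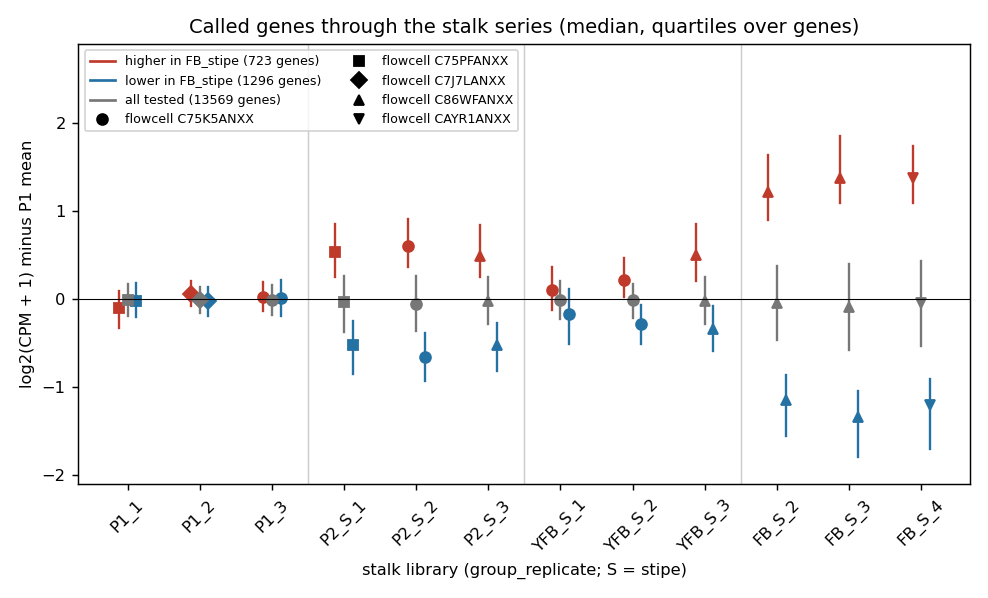
For each of the 12 stalk libraries, symbols give the median and lines the quartiles over genes of log2(CPM + 1) minus the P1 mean, in red for the 723 genes that rose, blue for the 1296 that fell and grey for all 13569 tested. The symbol shape marks the flowcell. The red medians are 0.50 to 0.61 in P2_stipe, 0.11 to 0.50 in YFB_stipe and 1.22 to 1.38 in FB_stipe.

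Of the single steps of the stalk, edgeR called genes for the one from young to mature stipe. Of the genes that rose from P1 to FB_stipe 325 were also called higher in FB_stipe than in YFB_stipe, and of the genes that fell 684 were called lower, against 412 higher and 800 lower in all for that step (8.93% of genes tested, 3.04% and 5.9%). FB_stipe libraries enter both comparisons. From P1 to P2_stipe edgeR and limma-voom called 0 genes, 1225 had an unadjusted p under 0.05 in edgeR, and the genes already chosen had a median log2 fold change of 0.62 for genes that rose and -0.66 for genes that fell.

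The change of the cap differed from that of the stalk for many of these genes. From its first to its last stage (P2_cap to FB_cap, 3 libraries each, none of them P1 or FB_stipe, with 12% of genes called) the median log2 fold change was -0.06 for genes that rose in the stalk and 0.25 for genes that fell there, against 0.06 over all genes tested. Of the genes that rose in the stalk, 88 were called higher in the mature cap (12.2%, against 7.9% of all genes) and 40 lower (5.53%, against 4.1%). Of the genes that fell in the stalk, 165 were called higher (12.7%) and 87 lower (6.71%) in the cap. A test of the difference between the stalk and the cap change (edgeR interaction contrast) called 3156 genes, 23.3% of those tested (9.34% with the stalk change higher and 13.9% with it lower). The stalk interval starts at P1 and the cap interval at P2_cap, a stage later, so organ and interval cannot be told apart. Among the genes that rose in the stalk the difference was called with the stalk change higher in 418, of which 358 were lower in FB_cap than in P2_cap (40 called), with a median cap change of -0.50. In 2 the rise was larger in the cap. Among the genes that fell, the difference was called with the stalk change lower in 845. Of these 746 were higher in FB_cap than in P2_cap (165 called) and 99 lower, with a median cap change of 0.63. In 6 the fall was larger in the cap. The interaction contains the stalk change by which these genes were chosen, so these shares are read as descriptions. For the 303 genes that rose and the 445 that fell with no call for a difference, the median cap changes were 0.79 and -0.45. Against P1, the start of the stalk interval, the 723 genes that rose had medians of 0.69 in P2_cap and 0.48 in FB_cap (log2(CPM + 1)). The 1296 genes that fell had medians of -0.72 and -0.58, and all genes tested -0.04 and -0.03. Both cap groups thus lay on the FB_stipe side of P1 for the median gene. P1 libraries chose these genes, so the values are descriptions.

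FB_cap was the group with the widest spread between libraries (median SD 0.39 on the log2(CPM + 1) scale), and FB_cap and FB_stipe shared no flowcell. Modelling flowcell left 644 genes called for the difference between stalk and cap. Leaving out FB_cap replicate 2 gave 2288. On the 1 flowcell with both cap stages, 50.9% of the genes that rose in the stalk were higher in FB_cap, against 47.9% of all genes tested. Of the genes that fell in the stalk 54.2% were higher there, against 63.0% with all libraries of both cap stages.

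Lenti6_1_580632 rose in both organs, from 347 ± 107 CPM in P2_cap to 4054 ± 3156 CPM in FB_cap (SD, n = 3 each). That is a log2 change of 3.55 ± 0.73 (SE, edgeR adjusted p = 0.00267), and its stalk and cap changes were not called different (-0.94 ± 0.93 SE, edgeR adjusted p = 0.477). Lenti6_1_519566 stayed at 3.13 to 11.1 CPM in all 9 cap libraries, below every FB_stipe library. Lenti6_1_528932 was at 48.5 CPM or less in each cap library.

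**Figure D5:**
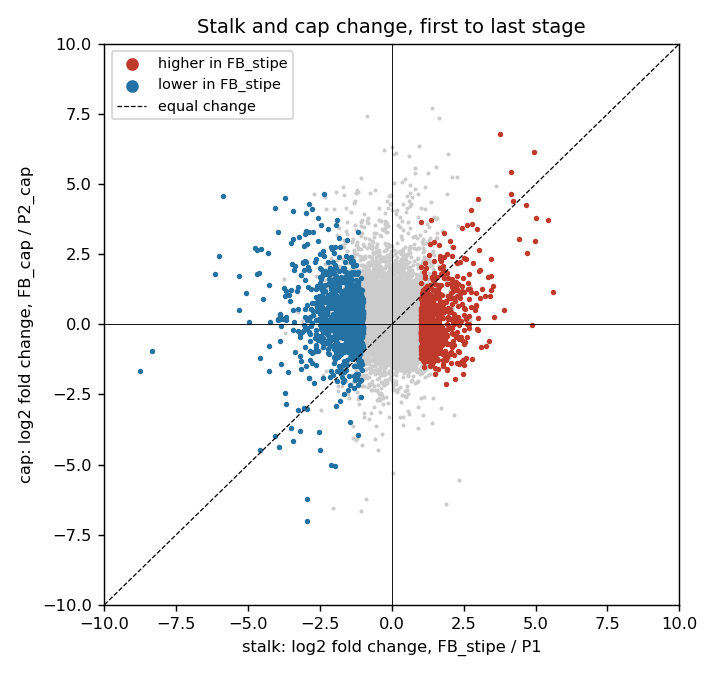
Each point is 1 gene, with the log2 fold change of FB_stipe over P1 across and that of FB_cap over P2_cap upward. Genes called in the stalk are red (higher) or blue (lower), other genes grey, and the dashed line marks equal change. Red and blue points centre near 0 on the cap axis, with medians of -0.06 and 0.25.

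In the young fruiting body, genes that rose in the maturing stalk were more often higher in the cap than in the stipe, and genes that fell more often lower. The contrast that chose the genes compares no YFB_cap or YFB_stipe library, and 18.4% of genes tested were called between these groups. All 27 libraries entered the filter, the scaling and the spread estimated per gene. That spread is used in every test of the fit, so shares of calls are not independent of the choice. Of the 723 genes that rose in the stalk, 186 were called higher in YFB_cap than in YFB_stipe (25.7%, against 6.85% of all genes tested) and 46 lower (6.36%, against 11.6%). Of the 1296 genes that fell, 544 were called lower in YFB_cap (42.0%) and 50 higher (3.86%). The median log2 difference, cap over stipe, was 0.50 for genes that rose, -0.95 for genes that fell and -0.08 over all genes tested. On the 2 flowcells that held both tissues 71.5% and 63.8% of the genes that rose were higher and 80.2% and 82.9% of the genes that fell were lower in the cap. One stage earlier the calls were fewer and did not follow this order. Between P2_cap and P2_stipe, with 7.78% of genes called, 23 of them were higher in the cap (3.34% of all genes were) and 79 lower (10.9%, against 4.44%), although by sign 55.0% were higher, against 48.5% of all genes. Of the genes that fell, 89 were called higher (6.87%) and 110 lower (8.49%) in P2_cap, above the share of all genes both ways. From P2_cap to YFB_cap edgeR called 44 genes (0.324%, 0.17% higher and 0.155% lower). Among them were 3 of the genes that rose in the stalk (0.41%), all higher in YFB_cap. Of the genes that fell, 6 were called lower (0.46%) and 1 higher (0.08%). By sign, 70.5% of the genes that rose were higher in YFB_cap than in P2_cap, against 47.8% of all genes. Of the genes that fell 75.4% were lower, against 52.2% of all genes.

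The vegetative mycelium (VM), the growth phase before fruiting, had medians slightly below the primordium for both groups, with wide quartiles. The median gene that rose lay 0.18 below P1 in VM (quartiles -0.71 and 0.26) and the median gene that fell 0.12 below it (quartiles -0.61 and 0.43, log2(CPM + 1)). Among the means of the 9 groups, the lowest for genes that rose was in VM for 358 (49.5%, against 22.5% of all genes tested) and in P1 for 167 (23.1%, against 5.75%). Their highest mean was in FB_stipe for 451 (62.4%, against 1769 of all 13569 genes) and in YFB_cap for 138 (19.1%, against 13.6%). For genes that fell, the highest mean was in VM for 467 (36.0%, against 22.9%) and in P1 for 424 (32.7%, against 8.92%). Their lowest was in FB_stipe for 742 (57.3%, against 15.6%), in YFB_cap for 251 (19.4%, against 14.9%) and in the lamellae for 154 (11.9%, against 12.0%). The genes were chosen on FB_stipe and P1, so the shares of these groups are fixed in part by the choice.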

How the data were processed

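For each library the authors deposited a table of gene counts (all reads, and reads mapped uniquely) with TPM values, per the file headers, and for the whole series one matrix of log2 RPKM values for the 27 libraries. PolyA libraries came from an Illumina kit, per the labels' protocols. Strand is not stated, so reads of genes that overlap on opposite strands cannot be told apart. R 3.0.2, edgeR 3.4.2 and limma 3.18.13 are named in the submitters' processing notes. Aligner and build: not given in the sources used here. A gene table of another assembly matched 0 identifiers.

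Tests used total counts. Low genes were removed by filterByExpr of edgeR with its minimum count of 10 (13569 kept, 2012 removed), libraries were scaled by TMM, and 9 group means were fitted to 27 libraries with edgeR 4.0.16 in R 4.3.3 (18 residual degrees of freedom). SEs were derived from fold change and F statistic. limma 3.58.1 and DESeq2 1.42.0 served as alternatives. Per direction, named genes are the one with the largest fold and, of the rest, the one with the largest difference in CPM, among called genes with libraries not overlapping and at least 20 CPM in the higher group. In 36 called genes under 90% of reads mapped uniquely. No replicate pair agreed within sampling noise (chi-square per degree of freedom 51.4 to 153). In counts simulated for FB_stipe against P1, 81% of seeded 4-fold and 15% of seeded 2-fold changes were called, as were 3 of 13369 unchanged genes. The seeded 2-fold changes had a median estimated fold of 2.02, so the fold rule and the adjusted p both limited their calls. With 100 genes seeded at each fold, the Benjamini-Hochberg cutoff was stricter there than with the 2019 calls of the data. The groups, genes and classes were chosen with earlier results of these data known.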

Additional observations from a re-analysis of the deposited data

Results flagged for a closer look

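The change from first to last stage differed between stalk and cap for 3156 genes in the interaction test, and for 3 of the 4 genes named here. The stalk interval (from P1) starts a stage earlier than the cap interval (from P2_cap), so organ and interval cannot be told apart. The stalk change of Lenti6_1_519566 exceeded its cap change by 4.48 ± 1.11 (log2, SE, edgeR adjusted p = 0.00663), with all 3 FB_stipe libraries above all P1 libraries and cap levels between 3.13 and 11.1 CPM. For Lenti6_1_528932 the stalk change was lower than the cap change, with a difference of -7.09 ± 1.94 (log2, SE, edgeR adjusted p = 0.0118). All 3 FB_stipe libraries lay below all P1 libraries. In the cap this gene held 1.06, 0.627 and 48.5 CPM in P2_cap and 4.28, 3.64 and 7.52 CPM in FB_cap (replicates 1, 2 and 3). Each of these values lies below the lowest P1 library (467 CPM), so the 2 intervals start from different levels. Its cap change was -1.68 ± 1.29 (log2, SE, edgeR adjusted p = 0.390). P2_cap replicates 1 and 2 lay below every FB_cap library, and P2_cap replicate 3 above them. For Lenti6_1_561202 the difference was -3.37 ± 0.78 (log2, SE, edgeR adjusted p = 0.00432). Its cap change from P2_cap to FB_cap was -1.20 ± 0.54 (log2, SE, edgeR adjusted p = 0.133).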

How the results depend on the processing

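Of 17 alternatives (6 of them leaving out 1 library), the count of 2019 genes moved by over 1.5 times with flowcell in the model (776 genes, 290 higher, 486 lower, 235 past 4-fold, of which 665 were among the 2019) and without FB_stipe replicate 3. Leaving out 1 library at a time gave 1329 to 1928 genes, 545 to 736 higher, 781 to 1192 lower and 392 to 537 past 4-fold. Without scaling, an alternative chosen after seeing the data, 429 genes were higher. DESeq2 called 2250 genes, limma-voom 1956, and limma on the deposited log2 RPKM values 2030. The fit of the 6 libraries alone called 2205. The late against early contrast called 4 genes in DESeq2 and 0 in every other alternative run for it, leave-outs included. It was not run on the log2 RPKM values. The difference between stalk and cap was called for 644 genes with flowcell in the model (264 higher, 380 lower, 406 past 4-fold). Leaving out 1 library gave 2288 to 3498 genes, 931 to 1371 higher, 1300 to 2161 lower and 944 to 1639 past 4-fold. The share of genes that rose and were lower in YFB_stipe than in P2_stipe was 71.8% to 87.5%, and that of genes that fell and were higher 77.7% to 84.2%, without 1 library at a time. Leaving out 1 library, the difference in the share of the 100 most abundant genes was 3.23 to 4.81 percentage points and that in detected genes -616.2 to -462.7. The cause of these moves was not tested.

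P1 and FB_stipe share the replicate numbers 2 and 3 only, and no label states that a number marks a common culture or day. Deviations from the group means of same-numbered libraries correlated at -0.42 and 0.02. With the replicate number as a block 1423 genes were called, and the call of Lenti6_1_580632 was lost (log2 fold change 2.42, edgeR adjusted p = 0.0503).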

Other observations

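Single libraries of the mature stipe were unevenly far from the primordium. FB_stipe replicate 2 was the lowest of the 3 FB_stipe libraries for 374 of the 723 genes that rose (51.7%, against 36.4% of all genes tested). It was the highest for 577 of the 1296 genes that fell (44.5%, against 37.2% of all genes). FB_stipe replicate 3 was the lowest for 603 of the genes that fell (46.5%, against 32.0% of all genes). P1 replicate 1 was the lowest P1 library for 371 of the genes that rose (51.3%, against 36.7% of all genes). Genes were chosen on these libraries, and the counts are descriptions.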
